A study of Mus musculus with 8 samples.

Results

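The oligoadenylate synthetase (OAS) family is described here across microglia sorted from mice with neuromyelitis optica (NMO), in which inflammation damages the optic nerves and spinal cord, and from control mice. Its 8 members, of the 41388 gene identifiers counted, are Oas1a, Oas1b, Oas1c, Oas1g, Oas2, Oas3, Oasl1 and Oasl2. They were matched by gene symbol and chosen with earlier results of these data known. All 8 had enough counts to be tested. RNA was sequenced from 8 libraries of C57BL/6 mice in 3 groups. There were 2 libraries of CD11c+ and 3 of CD11c- cells from the NMO animals, and 3 of microglia from control animals. The design text calls the mice adult. The labels give no age in weeks and no sex, and do not say how the disease was brought about. They name no allele or transgene, and whether a library came from 1 mouse or from several is not given. The control cells are called CD11c negative in one label and total microglia of unmanipulated mice in their titles, so it is unclear whether CD11c+ cells were removed from them. Nothing says that the libraries of a group came from separate mice, so p-values measure the spread between these libraries, which may be technical.

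OAS proteins are sensors of double-stranded RNA. When they bind it, the catalytically active members join ATP into 2′,5′-linked oligoadenylates (2-5A), small messengers of the antiviral response. Their genes are classical targets of interferon, which signals through STAT2 and IRF9, among others, to a promoter element built from repeated GAAA letters. Microglia, the resident macrophages of the brain and spinal cord, carry the interferon receptor.

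Libraries held 4943207 to 5914412 counts in NMO CD11c+ cells, 6437516 to 6819662 in NMO CD11c- cells and 7500815 to 9246061 in controls. Values are given as CPM, the count divided by the scaled library size and expressed on the usual counts-per-1e6 scale. All 8 listed microglial markers, among them P2ry12, Tmem119 and Sall1, had counts in every group. Their summed levels were 30413 to 31626, 31278 to 38715 and 38547 to 42296 CPM in NMO CD11c+, NMO CD11c- and control libraries. Of the 8, edgeR's quasi-likelihood test called 3 lower in NMO CD11c+ cells against controls, where 3.36% of all tested genes were called lower. DESeq2 called 5 lower there, where it called 13.9% of all tested genes in either direction. In NMO CD11c- cells the 2 tools called 0 and 2 lower, where they called 3.72% and 5.8% of all tested genes in either direction. At an unadjusted p under 0.05, edgeR's quasi-likelihood test had 6 of the 8 lower and 0 higher in NMO CD11c+ cells against controls. The list's median log2 fold change there was -0.51, beside 0.01 over all tested genes. P2ry12 was at 1950 and 2760 CPM in NMO CD11c+ libraries and 4619 to 4910 CPM in controls. Sall1 did not shift one way, at 1691 and 1147 CPM in NMO CD11c+ libraries and 1266 to 1403 CPM in controls. Itgax, which encodes CD11c, was at 188 and 181 CPM in NMO CD11c+ libraries, at 35.5, 41.3 and 40.0 CPM in NMO CD11c- libraries and at 30.6, 32.1 and 31.0 CPM in controls. NMO CD11c+ replicate 1 stands apart in base composition: over genes, its deviation from the mean of all libraries followed GC content with a Spearman correlation of 0.592, against -0.299 to -0.0378 in the other 7 libraries. The labels name no batch. The control libraries carry the numbers 21 to 23 and the NMO libraries numbers from 7 to 12, so any difference in handling between the 2 sets and the disease itself cannot be told apart.

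The family lies at 2 places on chromosome 5 (GRCm38, GENCODE M21). Oasl2 (114896936 to 114912234, plus strand) and Oasl1 (114923240 to 114937915, plus strand) are neighbours. The other members share a cluster that spans 191 kb and holds 10 listed OAS genes, with Oas2 (120730333 to 120749853) and Oas3 (120753098 to 120777661), both on the minus strand, at one end. Oas1a (120896256 to 120907521) and Oas1g (120876142 to 120887613), both on the minus strand, lie near the other end. Oas1c (120800194 to 120812514, minus strand) and Oas1b (120812635 to 120824163, plus strand) stand head to head, with 120 bases between their starts.

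The stretches of 120 bases before the RefSeq start (GRCm38.p6) are shown for the members that hold the core of the interferon-stimulated response element, searched as GAAA, any 2 letters and GAAA on both strands, in the 250 bases before their start. Matches are in capitals, and a match on the opposite strand reads TTTC, any 2 letters and TTTC.
Oas1a, chr5:120907526-120907645, minus strand: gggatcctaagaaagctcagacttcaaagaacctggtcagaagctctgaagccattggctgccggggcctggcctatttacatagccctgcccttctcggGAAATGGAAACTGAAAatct
Oas1g, chr5:120887614-120887733, minus strand: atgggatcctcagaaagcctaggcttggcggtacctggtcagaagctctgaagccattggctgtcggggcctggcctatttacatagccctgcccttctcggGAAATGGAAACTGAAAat
Oas1c, chr5:120812515-120812634, minus strand: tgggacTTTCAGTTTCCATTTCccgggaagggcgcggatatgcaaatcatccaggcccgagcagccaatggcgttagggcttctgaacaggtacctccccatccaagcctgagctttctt
Oas3, chr5:120777660-120777779, minus strand: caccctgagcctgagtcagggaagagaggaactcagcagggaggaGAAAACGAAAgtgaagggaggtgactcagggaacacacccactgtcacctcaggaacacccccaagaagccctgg

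The promoter table listed 6 of the 8 members, and 4 of these held the element's core, against 3.46% of all 27025 listed genes. Oas1a, Oas1g and Oas1c each held 2 overlapping matches in a run of 16 letters, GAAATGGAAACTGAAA, identical in all 3 when read on the strand where it spells GAAA. The hits in these 3 genes are thus not independent of each other. In Oas1a and Oas1g the run ends 4 and 2 bases before the RefSeq start. In the stretch before Oas1c the run lies on the opposite strand, 98 bases from the RefSeq start of Oas1c. It is 6 bases from the GENCODE M21 start of the neighbour Oas1b, for which no RefSeq start was listed. Oas3 held 1 match, which ends 65 bases before its start. Oasl1 and Oasl2 held none in this window, nor did the paralogues Oas1f and Oas1h. The core of the gamma-activated site, searched as TTC, any 3 letters and GAA, was found in Oas1a alone among the 6, against 8.13% of all listed genes. Oas1b, Oas2, Oas1d and Oas1e were not listed. A match describes the letters and is not a measured binding site.

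Every OAS gene but Oas1c rose in NMO microglia against controls in at least 1 of the sorted subsets, by 2.49-fold to 17.1-fold in CD11c+ cells. In NMO CD11c- cells 6 of the 8 members passed the test (edgeR's quasi-likelihood test, Benjamini-Hochberg adjusted p under 0.05 over all 12002 tested genes), all of them higher, where 3% of all tested genes were called higher, 0.717% lower and 3.72% in either direction. The median log2 fold change of all 8 members, called or not, was 2.19, beside -0.00 over all tested genes. All 8 had a fitted change above 0, as did 49.4% of all tested genes, and in all 8 every CD11c- library lay above every control, as in 17.6% of all tested genes. In NMO CD11c+ cells 7 of 8 passed, all higher, where 6.85% of all tested genes were called higher and 10.2% in either direction, and the members' median log2 fold change was 2.44, beside 0.01 over all tested genes. All 8 were above 0, as were 50.5% of all tested genes, and 7 of 8 did not overlap the controls, as 22.2% of all tested genes did on the higher side. Oas1b and Oas3 were not called in CD11c+ cells without CD11c+ replicate 1, which leaves 1 library in that group. With each library left out in turn, their log2 fold changes in CD11c+ cells ranged from 1.07 to 1.63 and from 1.53 to 2.26. The CD11c- and CD11c+ comparisons share the control libraries. Oas1g and Oasl1 reached the filter level of 1.496 CPM in 0 of 3 control libraries and passed it through the NMO libraries. The members, and the gene lists below, were also chosen with earlier results of these data known. Counts and medians over them are therefore descriptions only. In bulk RNA, more cells that express a gene and more RNA per cell cannot be told apart.

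**Figure D1:**
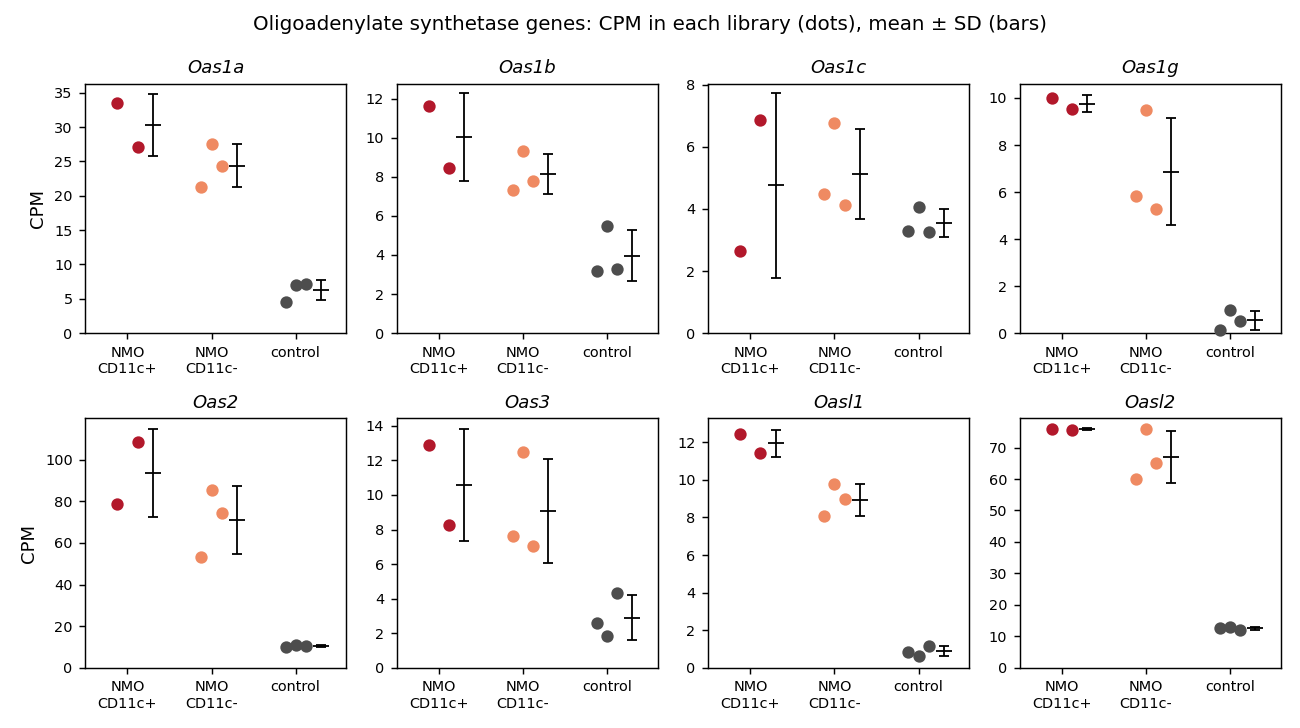
CPM of each OAS gene (vertical axis, from 0) in every library (dots) of NMO CD11c+, NMO CD11c- and control microglia, with mean ± SD beside the dots; scales differ between genes. The NMO libraries lie above all 3 controls for each gene but Oas1c, for which 1 CD11c+ library, at 2.66 CPM, lies below them.

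The Oas1 genes are the family's smallest, and the mouse carries many copies. Oas1a and Oas1g encode active synthetases. Oas1a was at 33.5 and 27.1 CPM in NMO CD11c+ libraries, at 21.2, 27.6 and 24.4 CPM in NMO CD11c- libraries and at 4.52, 6.96 and 7.19 CPM in controls. Every NMO library stood above every control. The log2 fold change against control was 2.28 in CD11c+ cells (SE 0.212, adjusted p = 0.000225) and 1.97 in CD11c- cells (SE 0.196, adjusted p = 0.000555).

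Oas1g was the member nearest to silence in control microglia, with 1, 9 and 4 counts per library. It was at 10.0 and 9.51 CPM in NMO CD11c+ libraries, at 5.84, 9.49 and 5.29 CPM in NMO CD11c- libraries and at 0.122, 0.964 and 0.523 CPM in controls. The groups of NMO mice did not overlap the controls, and the CD11c+ libraries lay just above the highest CD11c- library. Its fold changes were the highest of the family, at 17.1-fold in CD11c+ cells (95% interval 8.17 to 36.0, adjusted p = 0.000807) and 12.1-fold in CD11c- cells (5.96 to 24.5, adjusted p = 0.00236). With so few control counts the size is loosely set: without control replicate 2 the log2 fold change was 4.86 in CD11c+ cells, against 4.10 with it, and 4.36 in CD11c- cells, against 3.59 with it.

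Oas1a and Oas1g are close copies, identical at 96.7% of 1101 coding bases, whereas other pairs of members shared 65.1% to 81.5% of their aligned coding bases. Of the stretches of 50 bases in annotated Oas1a transcripts, 57.6% also occur in another gene, and for Oas1g 45.7%. How reads that map to both were counted is not given in the sources used here, so the split between the pair is uncertain. Their counts added together came to 43.5 and 36.6 CPM in NMO CD11c+ libraries, 27.1, 37.0 and 29.7 CPM in NMO CD11c- libraries and 4.65, 7.93 and 7.72 CPM in controls. Each gene alone already separates NMO from control libraries, so the sum had to separate them too and cannot settle the split. Any reads dropped for mapping to both genes would be missing from the sum as well.

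Oas1b is the mouse flavivirus resistance gene, and in C57BL/6, as in many laboratory strains, its product is truncated. GENCODE lists it as a polymorphic pseudogene. Its transcript was at 11.6 and 8.46 CPM in NMO CD11c+ libraries, at 7.33, 9.33 and 7.79 CPM in NMO CD11c- libraries and at 3.18, 5.46 and 3.27 CPM in controls. All NMO libraries lay above the controls, though by less than for Oas1a. Oas1b rose in CD11c+ cells, by 1.32 log2 units (SE 0.285, adjusted p = 0.019). That call does not hold when CD11c+ replicate 1 is left out (adjusted p = 0.0938), nor without control replicate 1 (0.0713) or 3 (0.078). In CD11c- cells it missed the threshold, at 1.02 log2 units (SE 0.258, adjusted p = 0.0599), though DESeq2 (adjusted p = 0.03) and edgeR's exact test (0.00923) called it, as did the fit without CD11c+ replicate 1 (0.0317) or 2 (0.0308) or control replicate 2 (0.046).

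Oas1c, a paralogue reported to lack synthetase activity, was the member without a call in any comparison. It was at 2.66 and 6.87 CPM in NMO CD11c+ libraries, at 4.49, 6.78 and 4.11 CPM in NMO CD11c- libraries and at 3.30, 4.07 and 3.27 CPM in controls. The CD11c+ libraries fall on either side of the controls, and the CD11c- libraries lie just above them. The log2 fold change in CD11c- cells was 0.52 (95% interval -0.24 to 1.29, adjusted p = 0.456), an interval that leaves room for a 2.44-fold rise and a small fall. In CD11c+ cells it was 0.44 (-0.44 to 1.32, adjusted p = 0.495). Oas1c and Oas1b, which share the 120 bases between their starts, thus had a call for Oas1b in CD11c+ cells and 0 calls for Oas1c by edgeR's quasi-likelihood test. Whether their changes differ from each other was not tested. Oas1c and Oasl1 each overlap an annotated antisense gene, and without a stated strand setting reads from the pairs cannot be told apart. The antisense partner of Oasl1, Gm13822, had 7 counts in all.

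The remaining Oas1 paralogues had few or no counts. Of the stretches of 50 bases in annotated Oas1c transcripts, 9.82% also occur in these paralogues. How shared reads were counted is not given, so the counts of Oas1c and of these paralogues are uncertain to that extent. Oas1e and Oas1f had 0 counts in all 8 libraries. Oas1d had 1 count, in NMO CD11c+ replicate 2. Oas1h had 0 and 3 counts in NMO CD11c+ libraries, 2, 1 and 3 in NMO CD11c- libraries and 1, 0 and 0 in controls, too few to test.

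Oas2 and Oas3 are built from repeated synthetase units, with coding sequences of 2253 and 3414 bases against 1086 to 1128 in the Oas1 members. Oas2 makes 2-5A. It was at 78.8 and 108.5 CPM in NMO CD11c+ libraries, at 53.3, 85.5 and 74.2 CPM in NMO CD11c- libraries and at 10.0, 10.8 and 10.46 CPM in controls. The lowest NMO library was far above the closely grouped controls. Oas2 rose 8.97-fold in CD11c+ cells (log2 3.17, SE 0.209, adjusted p = 3.5e-05) and 6.79-fold in CD11c- cells (log2 2.76, SE 0.196, adjusted p = 7.82e-05). Among all tested genes its p ranked 10 from the smallest in CD11c+ cells and 9 in CD11c- cells.

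Oas3, the longest protein of the family and in human cells the main source of 2-5A, was much scarcer. It was at 12.9 and 8.28 CPM in NMO CD11c+ libraries, at 7.63, 12.5 and 7.05 CPM in NMO CD11c- libraries and at 2.57, 1.82 and 4.32 CPM in controls. NMO libraries again lay above all controls, with a wide spread within each group. Oas3 rose by 1.87 log2 units in CD11c+ cells (SE 0.387, adjusted p = 0.0159) and by 1.66 in CD11c- cells (SE 0.352, adjusted p = 0.0313). The first call does not hold when CD11c+ replicate 1 (adjusted p = 0.0805), control replicate 1 (0.0633) or control replicate 2 (0.0617) is left out. The second does not hold without CD11c- replicate 1 (0.0593) or 2 (0.109) or control replicate 1 (0.153) or 2 (0.129).

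Oasl1 and Oasl2 encode OAS-like proteins that end in ubiquitin-like repeats. Mouse OASL1 has no synthetase activity and blocks the translation of Irf7, the transcription factor that amplifies interferon production. Oasl1 was at 12.5 and 11.5 CPM in NMO CD11c+ libraries, at 8.08, 9.79 and 8.96 CPM in NMO CD11c- libraries and at 0.856, 0.643 and 1.18 CPM in controls. There was no overlap between any of the 3 groups, with 7, 6 and 9 counts behind the control values. It rose 13.3-fold in CD11c+ cells (95% interval 8.79 to 20.2, adjusted p = 4.26e-05) and 9.99-fold in CD11c- cells (6.74 to 14.8, adjusted p = 0.000127).

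Mouse OASL2 keeps synthetase activity beside its ubiquitin-like repeats. Its gene was at 76.0 and 75.6 CPM in NMO CD11c+ libraries, at 59.9, 76.0 and 65.2 CPM in NMO CD11c- libraries and at 12.6, 12.9 and 12.0 CPM in controls. The replicates of each group were close together. Oasl2 had the smallest p of all tested genes in CD11c- cells against controls and the second smallest in CD11c+ cells, and in both it was called without each library in turn, with log2 fold changes of 2.32 to 2.50 in CD11c- cells and 2.57 to 2.62 in CD11c+ cells.

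**Figure D2:**
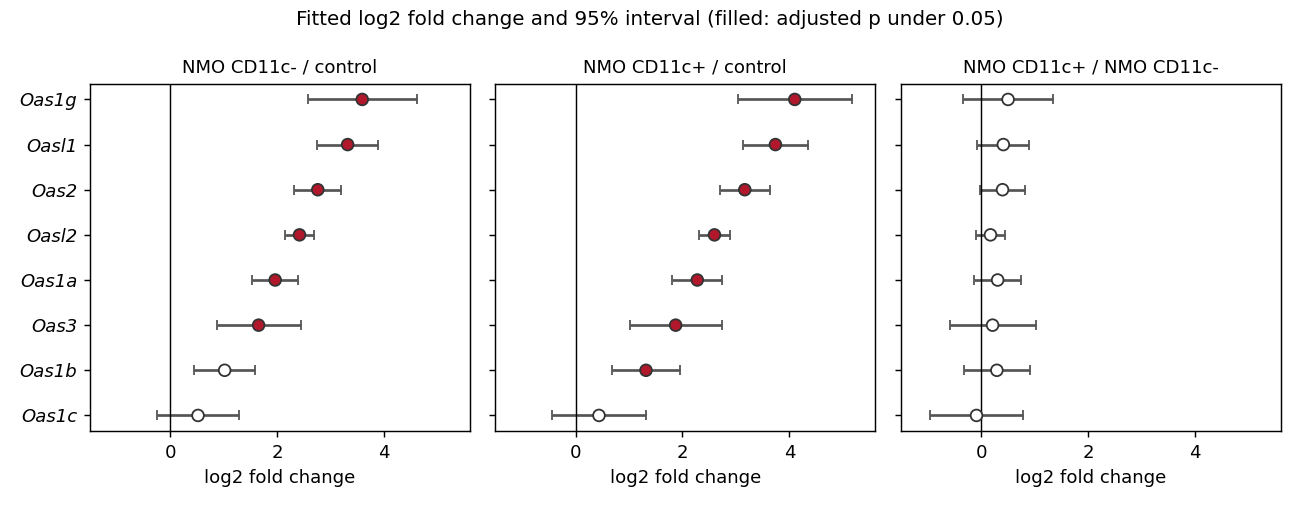
Fitted log2 fold change (horizontal axis) with its 95% interval for each OAS gene in NMO CD11c- against control, NMO CD11c+ against control and NMO CD11c+ against NMO CD11c- microglia; filled dots passed an adjusted p of 0.05. Values run from 0.52 for Oas1c to 3.59 for Oas1g in CD11c- cells, from 0.44 to 4.10 in CD11c+ cells, and from -0.08 to 0.51 between the subsets, where every interval spans 0.

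Between the NMO subsets 0 of the 8 members were called by edgeR's quasi-likelihood test, and 0 had an unadjusted p under 0.05 in it. That test called 0.283% of all tested genes in either direction, 0.1% higher and 0.183% lower. DESeq2 called 0 members and 2.23% of all tested genes, and edgeR's exact test 0 members and 2.32%. The fitted log2 fold change of CD11c+ over CD11c- cells was above 0 for 7 members, with Oas1c as the exception, and 51.4% of all tested genes were above 0. The members' median was 0.30, beside 0.01 over all tested genes. For Oas1g and Oasl1 both CD11c+ libraries lay above all CD11c- libraries, as for 13.8% of all tested genes, and no member lay below, as 14.2% did. Oas2 came nearest to a call (93.7 ± 21.0 CPM in CD11c+ cells and 71.0 ± 16.4 CPM in CD11c- cells, SD; unadjusted p = 0.0608, adjusted p = 0.341), with a fold of 1.32 and an interval of 0.985 to 1.77. For Oasl2 the interval was narrowest, 0.942-fold to 1.36-fold. It was 0.795-fold to 2.53-fold for Oas1g, the highest upper bound, 0.666-fold to 2.03-fold for Oas3 and 0.514-fold to 1.73-fold for Oas1c. The direction for Oas3 turns without CD11c+ replicate 1, to -0.13 in log2 units.

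Among the 3 NMO CD11c- libraries, replicate 2 had the highest CPM for all 8 members, as it did for 39.2% of all tested genes. The 8 genes share these libraries and are not independent. The same library had the highest mean log2 CPM of the neutrophil list, 7.96, against 6.92 and 6.44 in replicates 1 and 3, and the part of this in the members' values was not tested. Without replicate 2, the CD11c- comparison calls 5 members, with Oas3 lost. Over the fits that each leave out 1 library, 1.18% to 9.59% of all tested genes were called in that comparison.

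In length-adjusted terms (CPM per kb of annotated exon) the order of the family differed between NMO and control microglia. The places of Oas1a and Oas1g in these orders are uncertain. Of their stretches of 50 bases, 57.6% and 45.7% also occur in another gene, and how shared reads were counted is not given. In NMO CD11c+ cells Oas2 led at 21.0 ± 4.71 CPM per kb (SD, n = 2), followed by Oas1a at 16.1 ± 2.39, whose libraries overlapped those of Oas2, and by Oasl2 at 11.9 ± 0.0452. Oas1b, Oasl1 and Oas1g followed at 5.04, 4.58 and 4.17 CPM per kb, and Oas1c and Oas3 were last at 1.98 and 1.496 CPM per kb, their libraries overlapping. In NMO CD11c- cells the order was the same, from Oas2 at 16.0 ± 3.68 CPM per kb to Oas3 at 1.28 ± 0.423 (SD, n = 3), and each neighbour overlapped the next except Oasl2 over Oas1b. In controls Oas1a was highest at 3.30 ± 0.784 CPM per kb, then Oas2 at 2.34, Oas1b at 1.99, Oasl2 at 1.96 and Oas1c at 1.47, and Oas3, Oasl1 and Oas1g were between 0.410 and 0.229 CPM per kb. Oasl2 and Oas1c, and Oas1c and Oas3, were the only neighbours in the control order that did not overlap.

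The summed level of the family was 238 and 256 CPM in NMO CD11c+ libraries, 168, 237 and 197 CPM in NMO CD11c- libraries and 37.2, 43.6 and 42.2 CPM in controls. Oas2 and Oasl2 made up the greater part of the sum in every library. The share of Oas2 was 33.1% and 42.4% in NMO CD11c+ libraries, 31.8%, 36.1% and 37.7% in NMO CD11c- libraries and 27.0%, 24.8% and 24.8% in controls, so that every NMO library was above every control. Oas1c had 1.12% and 2.69% in NMO CD11c+ libraries, 2.68%, 2.86% and 2.09% in NMO CD11c- libraries and 8.88%, 9.34% and 7.74% in controls. The share of Oasl2 overlapped between NMO and control libraries, at 29.5% to 35.7% in NMO libraries of both subsets and 28.5% to 33.9% in controls. These shares are descriptions, without a test.

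**Figure D3:**
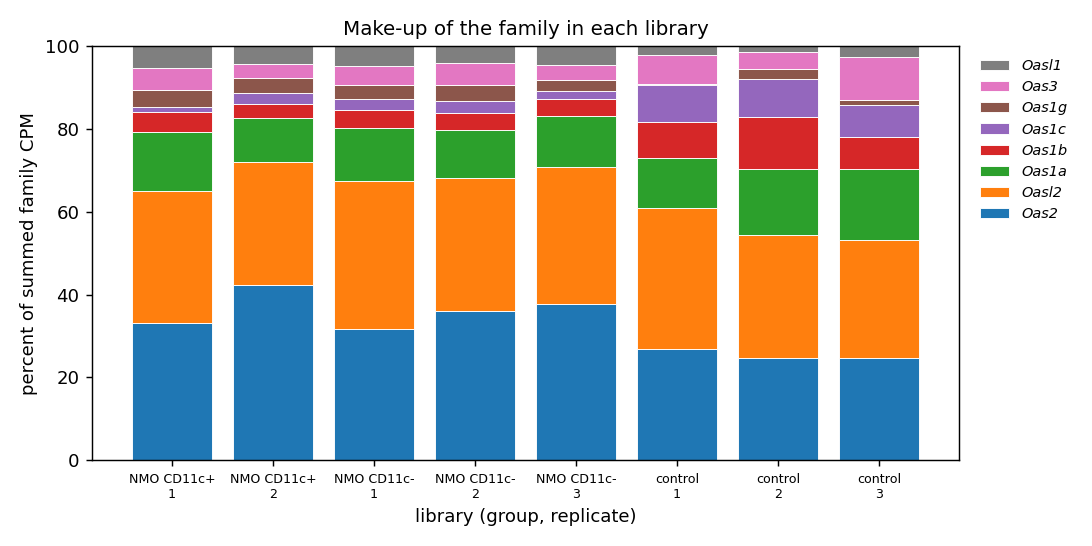
Share of each OAS gene in the summed CPM of the 8 genes (vertical axis, percent) in each library, NMO CD11c+ at the left, NMO CD11c- in the middle and controls at the right. Oas2 and Oasl2 form the lower part of every bar; Oas1b and Oas1c take wider bands in the controls, where Oas1c is at 7.74% to 9.34%, than in the NMO libraries.

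The genes linked to 2-5A that are described here were not called higher in either subset. Abce1, which encodes a ribosome recycling factor, was at 61.9 and 82.1 CPM in NMO CD11c+ libraries, 79.8, 79.8 and 87.7 CPM in NMO CD11c- libraries and 104, 104 and 99.1 CPM in controls. It fell in CD11c+ cells (log2 -0.50, SE 0.127, adjusted p = 0.0348), where 3.36% of all tested genes were called lower, and did not pass in CD11c- cells (-0.31, adjusted p = 0.157). Pde12 and Akap7, whose products degrade 2-5A, were not called, with log2 fold changes of -0.35 and 0.15 in CD11c+ cells and -0.22 and 0.03 in CD11c- cells.

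Of 11 genes of RNA and DNA sensing, 6 were higher in NMO CD11c- cells and 4 in NMO CD11c+ cells. Of all tested genes, 3% and 6.85% were called higher in these comparisons against control. By edgeR's quasi-likelihood test 0 were lower in either, with 0 and 2 lower at an unadjusted p under 0.05, and 0 lower by DESeq2 or the exact test. Zbp1, a sensor of Z-form nucleic acid, was at 34.7 and 34.7 CPM in NMO CD11c+ libraries, at 24.8, 35.4 and 26.2 CPM in NMO CD11c- libraries and at 5.01, 4.50 and 4.97 CPM in controls, with log2 fold changes against control of 2.84 and 2.57 (adjusted p = 3.5e-05 and 7.82e-05). Dhx58, a helicase related to RIG-I, rose by 1.24 and 1.0 log2 units (adjusted p = 0.00042 and 0.0014) in the same order of subsets, and Trim25, a ubiquitin ligase of the RIG-I pathway, by 0.59 in each (adjusted p = 0.0109 and 0.012). Eif2ak2, which encodes the RNA-activated kinase PKR, rose in CD11c- cells (0.87, adjusted p = 0.0191) and did not pass in CD11c+ cells (0.58, adjusted p = 0.07).

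The interferon genes themselves were hardly seen. Of 11 listed ligand genes 8 had 0 counts in all libraries, and 0 were tested. Ifnb1, named after its values were seen, had 0 and 1 counts in NMO CD11c+ libraries, 3, 2 and 3 in NMO CD11c- libraries and 0, 2 and 0 in controls, and Ifna2 and Ifna4 had 1 count each. Of 15 genes of the receptors and the signal chain, 5 were higher in each subset against controls. Of all tested genes, 6.85% were called higher in CD11c+ cells and 3% in CD11c- cells. The median log2 fold change over the list was 0.25 in CD11c+ cells and 0.11 in CD11c- cells. Over all tested genes it was 0.01 and -0.00. Irf7 was at 77.0 and 76.8 CPM in NMO CD11c+ libraries, at 55.7, 80.9 and 61.3 CPM in NMO CD11c- libraries and at 13.1, 19.0 and 14.8 CPM in controls, with log2 fold changes of 2.29 and 2.07 (adjusted p = 9.26e-05 and 0.000163). Stat2 rose by 0.92 and 0.96 log2 units (adjusted p = 0.000694 and 0.0005) and Usp18, a brake on receptor signalling, by 1.84 and 1.69 (adjusted p = 0.00268 and 0.00532), in CD11c+ and CD11c- cells in that order. Of the 4 receptor genes Ifnar1, Ifnar2, Ifngr1 and Ifngr2, the last was called, in CD11c+ cells (log2 0.53, adjusted p = 0.0156), and in CD11c- cells it was at 0.34 (adjusted p = 0.0926). Between the NMO subsets 0 genes of the sensing and signal lists were called by edgeR's quasi-likelihood test, DESeq2 or the exact test, while at an unadjusted p under 0.05 1 was lower in the sensing list and 1 higher in the signal chain.

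Genes with a pattern most like that of the family were ranked by Pearson correlation over the 8 libraries with the mean standardised log2 CPM of the members. The first 5 of the tested genes were Irf7 (0.996), Ifi207 (0.995), Csf2rb (0.994), Ankrd16 (0.993) and Gbp4 (0.993). These values are descriptions: the libraries fall into NMO and control sets, and any gene with a clean step between them scores high. Among the members themselves the correlation with that mean, of which each is a part, was 0.912 to 0.991 for 7 and 0.530 for Oas1c.

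Neutrophil markers, and some monocyte markers, differed between the groups. All 10 neutrophil markers were lower in NMO CD11c+ than in control libraries, where 3.36% of all tested genes were called lower. In NMO CD11c- libraries 2 of 10 were higher than in controls, where 3% of all tested genes were called higher. DESeq2 called 5 higher in CD11c- cells, where it called 5.8% of all tested genes in either direction. The exact test called 8 higher, where it called 7.02% in either direction. In the quasi-likelihood test all 10 had an unadjusted p under 0.05, with a median log2 fold change of 1.95. Their summed level was 15.3 to 19.7 CPM in NMO CD11c+ libraries, with Ly6g at 0, 2067 to 10682 CPM in NMO CD11c- libraries and 864 to 1774 CPM in controls. Of 8 monocyte markers 3 were higher in NMO CD11c- cells and 1 higher and 1 lower in NMO CD11c+ cells against controls, with summed levels of 44.9 to 54.9, 202 to 993 and 82.8 to 158 CPM in NMO CD11c+, NMO CD11c- and control libraries. T cell markers stayed between 0.978 and 2.26 CPM in sum in every library, with Cd3e and Cd3g at 0 throughout. The part of neutrophil or monocyte RNA in the members' values was not tested. With the neutrophil markers as a covariate, Oas2, Oasl1 and Oasl2 were the 3 members called in CD11c- cells, where 0.175% of all tested genes were called in either direction, and 0 members were called in CD11c+ cells, where 0.0417% of all tested genes were. The fitted log2 fold changes in CD11c+ cells were larger with the covariate for all 7 members called without it, for example 4.13 against 3.17 for Oas2, 3.36 against 2.28 for Oas1a and 3.09 against 2.598 for Oasl2, with larger SEs. In CD11c- cells they were smaller for all 8 members, for example 0.72 against 1.66 for Oas3 and 2.65 against 3.59 for Oas1g. The covariate, the mean log2 CPM of the list, was 0.107 and 0.414 in CD11c+ libraries, 6.92, 7.96 and 6.44 in CD11c- libraries and 4.83, 5.30 and 6.14 in controls, so that it sets the CD11c+ libraries apart from all others.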

How the data were processed

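Per the labels' protocols, cells were isolated ex vivo with CD11b, CD45 and CD11c, and libraries were made from total RNA with an Illumina TruSeq kit. The authors deposited whole-number counts per gene, 1 file per library; the submitters' processing notes name STAR, HTSeq 0.5.4, edgeR 3.12.0 and GRCm38. The sources used here do not give the strand setting, annotation release or handling of multiply mapped reads. All 8 libraries were used, and 0 columns were left unused.

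Symbols, coordinates and exon lengths came from GENCODE M21 (40254 of 41388 identifiers matched), and promoter sequences from RefSeq. Replicates are numbered in accession order. Genes passed filterByExpr at a minimum count of 10 (12002 tested). Libraries were scaled by TMM and fitted together in R 4.3.3 with edgeR 4.0.16 (glmQLFit and glmQLFTest, with 5 residual and 5.08 prior degrees of freedom), and groups were contrasted with Benjamini-Hochberg adjustment over all tested genes. The SE is the absolute log2 fold change over the square root of F, and 95% intervals use it. Alternatives included other scalings and filters, DESeq2 1.42.0, the edgeR exact test, GC content and length correction, a neutrophil covariate and each library left out. The pipeline was tested on simulated data.

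The members and lists were chosen with earlier results of these data known. Some listed genes are not reported here. Genes named are the members, the 2-5A and paralogue lists, up to 4 genes of the sensing and signal lists with the smallest adjusted p in NMO CD11c- against control, Itgax, Itgam and Ptprc, and the 5 genes most like the family; Ifnb1, Ifna2, Ifna4, Ifnar1, Ifnar2, Ifngr1 and Ifngr2 were named after their values were seen. Itgam was at 2160 to 2757 CPM and Ptprc at 637 to 999 CPM over all libraries.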

Additional observations from a re-analysis of the deposited data

How the results depend on the processing

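The number of members called did not move beyond 1.5 times under RLE, upper quartile or library size scaling, with no filter or a stricter one, with DESeq2 or the exact test, with only the groups compared, against a 1.5-fold threshold or after GC content and length correction. Leaving out 1 library gave 5 to 7 members higher in NMO CD11c- against control (1.18% to 9.59% of all tested genes called), 5 to 7 in NMO CD11c+ against control (4.09% to 32.7%) and 0 to 0 between the NMO subsets (0.0322% to 24.2%). With neutrophil markers as a covariate the counts were 3 for CD11c- and 0 for CD11c+ cells against control, where 0.175% and 0.0417% of all tested genes were called. All 7 log2 fold changes in CD11c+ cells were larger in that fit (1.63 for Oas1b to 6.93 for Oas1g), while in CD11c- cells Oas3 was at 0.72, against 1.66 without the covariate, and Oas1g at 2.65, against 3.59. In that fit the SE of Oas1a in CD11c+ cells was 0.817, against 0.212 without the covariate. Of the single-gene values under an alternative, 6 reversed in sign, none of them called. With the covariate Oas1c was at 2.39 between the subsets and -0.11 in CD11c- cells against control. On leaving out 1 library, Oas1c between the subsets ranged from -0.94 to 0.42 (0.42 without CD11c+ replicate 1, 0.17 without CD11c- replicate 2), Oas3 between the subsets from -0.13 (without CD11c+ replicate 1) to 0.52, and Oas1c in CD11c+ cells against control from -0.42 (without CD11c+ replicate 2) to 0.94; the cause was not tested. Against a 1.5-fold threshold Oas3 lost its call in both subsets (adjusted p = 0.207 in CD11c- and 0.0847 in CD11c+ cells) and Oas1b in CD11c+ cells (0.155), and Oas1b in CD11c+ cells also with only the groups compared (0.0538). No paired analysis was possible because the labels carry no shared replicate numbers and tie no CD11c+ library to a CD11c- library of the same mouse. Oas1g and Oasl1 had 14 and 22 counts in all controls together.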
